A study of Homo sapiens with 6 samples.

Results

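Genes for the synthesis of the deoxynucleotides that DNA replication uses were followed in C4-2 cells, a castration-resistant subline of the androgen-sensitive prostate cancer cell line LNCaP. The 9 genes were taken by symbol from the 55765 gene symbols of the count files, and were TYMS, RRM1, RRM2, TK1, DUT, DTYMK, CAD, DCK and SAMHD1. All 9 were found and all passed the filter on low counts, as did 16835 gene symbols in all. Cultures were treated for 72 h with the androgen R1881 (methyltrienolone) at 1 nM, a supraphysiological androgen level (SAL), or with the solvent DMSO, with 3 libraries of total RNA in each group numbered 1 to 3. C4-2 is an established line, so the libraries are repeats on the same cell line. The paper states that the sequencing experiment was done 3 independent times per condition. The labels give growth in DMEM with 5% FBS and treatment in DMEM for both groups, and whether that serum was stripped of hormones is not given in the sources used here, so DMSO is a solvent control and cannot be read as an androgen-free state.

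Cells make deoxynucleotides along a route that starts with the assembly of purine and pyrimidine rings, passes through ribonucleotide reductase, which turns ribonucleotides into deoxyribonucleotides, and has a side branch in which thymidylate synthase makes the thymine nucleotide from the uracil nucleotide. A salvage branch phosphorylates ready-made deoxynucleosides. Several of these enzymes, among them the small subunit of ribonucleotide reductase, thymidylate synthase and cytosolic thymidine kinase, are known to be made mostly in cells that prepare for or pass through S phase, and the triphosphohydrolase SAMHD1 acts in the opposite sense by breaking deoxynucleoside triphosphates down. In RNA from a whole culture, fewer cells in S phase and less RNA of a gene per cell cannot be told apart.

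The libraries held between 6931042 and 8186483 gene counts in DMSO and between 8112598 and 9776990 in SAL after rRNA genes were removed. Levels are in CPM, each gene's count set against its library's total after TMM scaling. SAL was compared with DMSO by edgeR's quasi-likelihood test with the replicate number as a block, and a gene with a Benjamini-Hochberg adjusted p under 0.05 over all genes tested was called. The known androgen-induced genes KLK3 and FKBP5 were higher in SAL, by 1.21 and 3.36 on the log2 scale (adjusted p = 3.33e-07 and 1.84e-11). The summed level of 7 prostate luminal markers lay between 2378 and 4078 CPM in DMSO and between 4125 and 7962 CPM in SAL. The 3 basal markers (1 of them, KRT5, without a count in any library) and the 4 immune markers (2 without a count) summed to at most 0.372 and 0.668 CPM in any library. The 4 stromal markers summed to between 2.43 and 12.2 CPM, and the 2 endothelial markers in the files (CDH5 without a count) to between 0.496 and 3.84 CPM. Same-numbered libraries resembled each other, and libraries of replicate 1 stood apart in both groups. In the 25% of genes with the shortest canonical transcripts, the median level of DMSO replicate 1 was 0.45 higher on the log2 scale than the mean of DMSO replicates 2 and 3, while the difference was -0.55 in the 25% with the longest. In SAL these differences were 0.36 and -0.40. The median change from DMSO to SAL was 0.04 and -0.02 in the same classes of genes.

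The starts of some of the 9 genes are shown, to describe which letters their promoters hold. A part of these letters in the change under SAL was not tested. The stretches of CAD, DCK and DUT are not printed. In these 200 bases they hold none of the letters marked below, and neither does TK1. Each stretch below covers the 200 bases before the RefSeq start in GRCh38.p14, read 5′ to 3′ along the gene. Capitals mark a CCAAT box, the letters bound by NF-Y, on either strand, or the letters TTTCGCGC, TTTGGCGC, TTTCCCGC or TTTGCCGC on either strand, which are spellings of the site of E2F factors, the regulators of S-phase genes. The stretches lie at chr2:10122539-10122738 on the plus strand for RRM2, at chr11:4094485-4094684 on the plus strand for RRM1, at chr18:657453-657652 on the plus strand for TYMS, at chr2:241686816-241687015 on the minus strand for DTYMK, at chr20:36951709-36951908 on the minus strand for SAMHD1 and at chr17:78187205-78187404 on the minus strand for TK1.
RRM2: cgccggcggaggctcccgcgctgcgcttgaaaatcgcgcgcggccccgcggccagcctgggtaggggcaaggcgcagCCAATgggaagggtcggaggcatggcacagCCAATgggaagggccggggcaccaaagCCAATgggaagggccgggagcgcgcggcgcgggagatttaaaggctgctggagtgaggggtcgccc
RRM1: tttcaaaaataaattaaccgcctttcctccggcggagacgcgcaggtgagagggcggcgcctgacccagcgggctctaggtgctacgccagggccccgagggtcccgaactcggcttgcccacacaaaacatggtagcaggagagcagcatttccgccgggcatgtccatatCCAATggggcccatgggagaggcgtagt
TYMS: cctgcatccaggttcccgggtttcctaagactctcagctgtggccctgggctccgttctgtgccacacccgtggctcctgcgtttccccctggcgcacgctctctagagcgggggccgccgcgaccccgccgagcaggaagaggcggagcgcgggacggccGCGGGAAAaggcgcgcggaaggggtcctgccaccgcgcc
DTYMK: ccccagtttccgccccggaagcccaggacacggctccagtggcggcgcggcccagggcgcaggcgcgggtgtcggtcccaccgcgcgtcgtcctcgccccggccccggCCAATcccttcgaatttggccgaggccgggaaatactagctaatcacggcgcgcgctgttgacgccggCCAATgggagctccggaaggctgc
SAMHD1: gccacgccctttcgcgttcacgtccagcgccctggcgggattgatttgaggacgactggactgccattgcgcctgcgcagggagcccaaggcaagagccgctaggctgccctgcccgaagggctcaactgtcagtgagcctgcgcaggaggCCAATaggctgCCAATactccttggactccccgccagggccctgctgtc
TK1: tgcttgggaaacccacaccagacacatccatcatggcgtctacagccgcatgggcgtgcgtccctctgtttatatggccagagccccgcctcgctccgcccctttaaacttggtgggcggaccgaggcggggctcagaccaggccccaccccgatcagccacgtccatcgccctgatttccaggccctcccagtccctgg

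All 9 genes had a promoter in the RefSeq table. In the 250 bases before the start, a CCAAT box was found in 5 of the 9 (RRM1, RRM2, DTYMK, CAD and SAMHD1), against 32% of the 35116 promoters in the table. RRM2 held 3 of them on the plus strand, ending 119, 89 and 62 bases before the start. An E2F spelling was found in 1 of the 9, in TYMS from 39 to 32 bases before the start on the strand opposite to the gene, against 2.79% of all promoters. The GC box GGGCGG was in 5 of the 9 (42.6% of all promoters). The E-box CACGTG was in DCK (6.34% of all) and the cell cycle element TTTGAA in RRM1 (13.3% of all). The letters AGAACA, the core of an androgen response element, were in none of the 9 windows (12.4% of all promoters hold it). The window of DUT held none of the motifs searched, and that of TK1, the gene with the largest fall, held only GC boxes. No motif was common to the 9 windows. These are matches of letters and were not tested for binding, and other spellings of the same sites were not searched. For each gene 1 RefSeq start was used, which may differ from the start of the canonical transcript given below. Windows before other starts of the same gene were not searched.

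**Figure D1:**
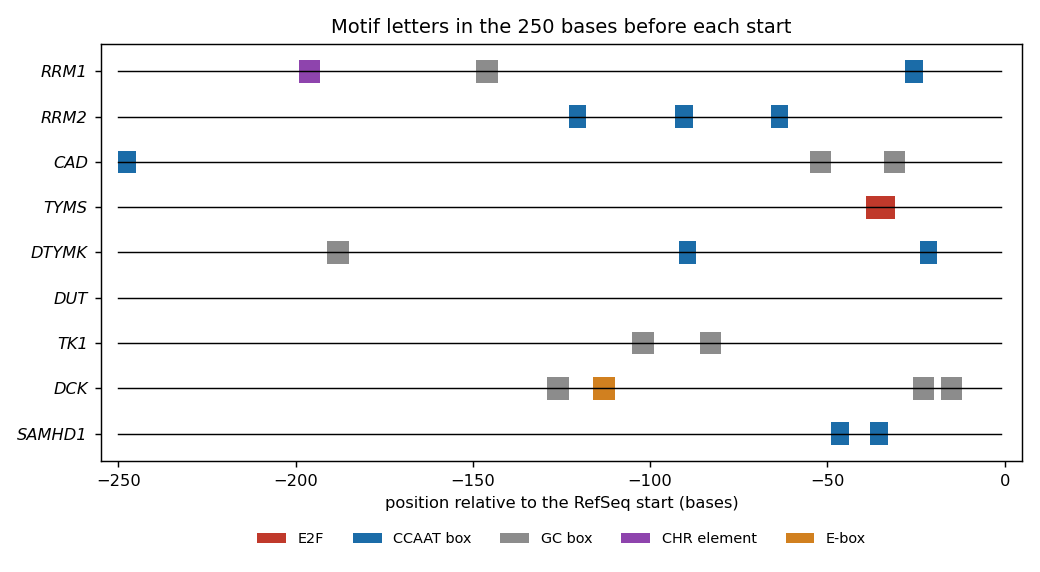
Position of each motif match in the 250 bases before the RefSeq start of the 9 genes, in bases from the start on the horizontal axis. Blue boxes are CCAAT boxes, which 5 of the 9 genes hold, and the red box is the E2F spelling in TYMS.

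All 9 genes were lower in SAL, and all 9 were called down-regulated. Among all genes tested, 9.37% were called down and 11.5% up. The median log2 fold change of the 9 was -0.57, from -0.96 for TK1 to -0.31 for DUT, while the median over all genes tested was -0.0011. Each of the 9 was lower in SAL in all 3 same-numbered pairs, as were 25.3% of all genes tested. No gene of the 9 was called up by edgeR or by DESeq2 (with 7.62% of all genes called up by DESeq2), and none was higher with an unadjusted p under 0.05. Without the replicate block, edgeR called none of the 9 (0.0178% of all genes were then called down), with adjusted p = 1.00 for each and 1 of them, TK1, at an unadjusted p under 0.05, although their median log2 fold change was again -0.57. The levels of the groups overlapped for every gene but TK1, so that the calls rest on the change within pairs and not on separated groups. DESeq2 with the block called 7 of the 9 (4.75% of all genes called down), and left out DUT and DCK, the genes with the smallest changes.

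**Figure D2:**
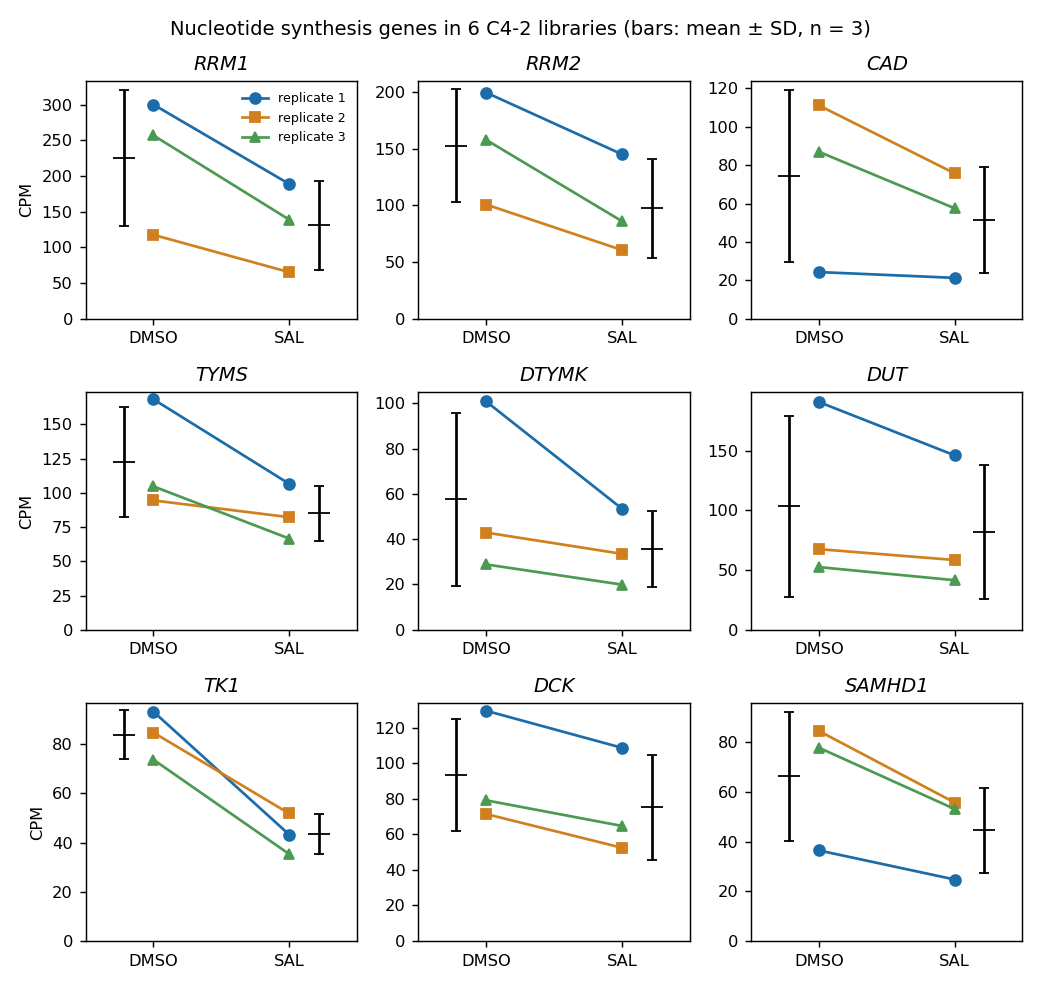
Level in CPM of the 9 genes in each library, with same-numbered DMSO and SAL libraries joined by a line and the mean ± SD of 3 libraries beside each group. Every line falls from DMSO to SAL, while the order of the replicates differs between genes, with replicate 1 lowest for CAD and SAMHD1 and highest for 6 of the others in both groups.

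Ribonucleotide reductase pairs a large catalytic subunit, RRM1, with a small subunit, RRM2, that carries the radical needed for the reaction. RRM1 (chromosome 11, 4116029 to 4160162 in GRCh37, plus strand, 19 exons) stood at 300, 118 and 257 CPM in DMSO replicates 1, 2 and 3 and at 189, 65.2 and 139 CPM in SAL. Its mean fell from 225 ± 95.5 to 131 ± 62.3 CPM (SD, n = 3). The fit gave a change of -0.80 log2 units (SE 0.09, adjusted p = 1.87e-05), or -0.67, -0.85 and -0.89 in pairs 1, 2 and 3. Replicate 2 was lowest in both groups, and SAL replicate 1 was above DMSO replicate 2. RRM2 (chromosome 2, 10262866 to 10271541, plus strand, 10 exons), whose promoter with 3 CCAAT boxes is printed above, had the same order of replicates within each group. It stood at 199, 101 and 158 CPM in DMSO and at 145, 60.5 and 86.0 CPM in SAL. The fitted change was -0.69 log2 units (SE 0.10, adjusted p = 0.000180), or -0.46, -0.73 and -0.87 in pairs 1, 2 and 3. The ratio of RRM2 to RRM1 within a library, on the log2 scale, moved by 0.21, 0.12 and 0.01 from DMSO to SAL, so that both subunits fell to a like extent in pair 3 and RRM1 fell further in pair 1. The counts of RRM2 are little touched by its copies, since the 3 processed copies in the files (2 of them with counts) summed to at most 69 counts in a library, against at least 552 for RRM2.

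RRM2B encodes the alternative small subunit, which is known as a target of p53 and supplies deoxynucleotides for repair and for mitochondrial DNA outside S phase. It was not called, with a log2 fold change of -0.14 (95% interval -0.37 to 0.09, adjusted p = 0.408), and its pairs moved by 0.13, -0.43 and -0.14. Its level was 166 ± 38.8 CPM in DMSO and 155 ± 56.9 CPM in SAL. The ratio of RRM2 to RRM2B was lower in SAL within every pair, by differences of -0.59, -0.30 and -0.73 log2 units. Per kb of the canonical transcript, RRM2 stood at 61.2, 30.9 and 48.4 CPM and RRM2B at 37.9, 25.6 and 40.9 CPM in DMSO. In SAL the levels per kb were 44.5, 18.6 and 26.4 CPM for RRM2 and 41.6, 19.02 and 37.01 CPM for RRM2B. RRM2 was thus the higher small subunit in all 3 DMSO libraries and in SAL replicate 1, and RRM2B was the higher in SAL replicates 2 and 3. RRM2B was called down without replicate 1, at -0.28 (adjusted p = 0.0331). It was not called without replicate 2, at -0.022 (adjusted p = 0.919), or without replicate 3, at -0.14 (adjusted p = 0.749). Its change thus depended on the pairs kept. The difference between the changes of the small subunits was not tested.

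CAD is the large enzyme that carries out the opening steps of pyrimidine synthesis. CAD (chromosome 2, 27440237 to 27466811, plus strand, 44 exons) stood at 24.3, 111 and 87.0 CPM in DMSO and at 21.3, 75.8 and 57.5 CPM in SAL. Replicate 1 was far below the others in both groups, with differences of -2.01 in DMSO and -1.62 in SAL from the mean log2 CPM of replicates 2 and 3. CAD has the longest canonical transcript of the 9, at 7286 bp, and this difference went in the direction of the other long transcripts of replicate 1, a relation whose part in the result was not tested. CAD changed by -0.47 log2 units (SE 0.11, adjusted p = 0.00551), with -0.19 in pair 1, where DMSO and SAL had 196 and 166 counts, and -0.55 and -0.59 in pairs 2 and 3. Without replicate 1 it was -0.57 and still called, and without replicate 3 it was -0.39 and not past the threshold (adjusted p = 0.217). DESeq2 called none of the 4 further genes of pyrimidine synthesis in either direction (4.75% of all genes down and 7.62% up). By edgeR, 2 of the 4 were called down (9.37% of all genes) and none up (11.5%), even at an unadjusted p under 0.05. These were UMPS, which makes the nucleotide UMP, at -0.36 (adjusted p = 0.0206), and CTPS1, which makes CTP, at -0.35 (adjusted p = 0.0171). DHODH, the mitochondrial step between CAD and UMPS, had -0.13 (adjusted p = 0.633), and CTPS2 had 0.06 (adjusted p = 0.788).

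The thymidylate branch was represented by TYMS, which methylates dUMP to dTMP, by DUT, which cleaves dUTP and so supplies dUMP and keeps uracil out of DNA, and by DTYMK, which phosphorylates dTMP. TYMS (chromosome 18, 657653 to 673578, plus strand, 7 exons) stood at 168, 94.5 and 105 CPM in DMSO and at 107, 82.2 and 66.7 CPM in SAL. The fit gave a change of -0.51 log2 units (SE 0.11, adjusted p = 0.00337), or -0.66, -0.20 and -0.65 in pairs 1, 2 and 3, so that pair 2 moved least. Without replicate 3 the change was -0.43 and not past the threshold (adjusted p = 0.170). Of the canonical transcript of TYMS, 60.0% overlaps exons of ENOSF1 on the opposite strand in the annotation used here, which is newer than that of the counting. Counting took no account of strand and gave a read lying wholly in exons of both genes to neither, so the TYMS count leaves out such reads. ENOSF1 was itself called down, at -0.35 (adjusted p = 0.0169).

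DTYMK (chromosome 2, 242615162 to 242626230, minus strand, 5 exons) stood at 101, 42.9 and 28.9 CPM in DMSO and at 53.5, 33.5 and 20.0 CPM in SAL. Replicate 1 was highest in both groups, and SAL replicate 1 was above DMSO replicates 2 and 3. The fitted change was -0.62 log2 units (SE 0.12, adjusted p = 0.00196), or -0.91, -0.35 and -0.53 in pairs 1, 2 and 3. DUT (chromosome 15, 48623626 to 48635570, plus strand, 7 exons) showed the smallest change of the 9. It stood at 191, 67.5 and 52.5 CPM in DMSO and at 146, 58.4 and 41.5 CPM in SAL, with the widest spread between replicates relative to its mean (104 ± 75.9 CPM in DMSO). The fit gave a change of -0.31 log2 units (SE 0.10, adjusted p = 0.0305), or -0.38, -0.21 and -0.34 in pairs 1, 2 and 3. The call was lost with DESeq2 (adjusted p = 0.139), without replicate 1 (adjusted p = 0.0829) and without replicate 3 (adjusted p = 0.354). DUT has 8 processed copies in the files, which summed to at most 59 counts in a library against at least 337 for DUT, and reads aligned at several places were tallied apart from the genes.

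Of the 9 genes of the folate cycle followed here, which supplies the carbon units for thymidylate and purines, 6 were called down by edgeR and 4 by DESeq2. None was called up by either, with 1 at an unadjusted p under 0.05, and their median change was -0.33 log2 units. Among all genes, edgeR called 9.37% down and 11.5% up, and DESeq2 called 4.75% and 7.62%. The mitochondrial enzymes MTHFD2 and MTHFD1L changed by -0.72 and -0.58 (adjusted p = 5.95e-05 and 0.00184), SHMT2 had -0.40 (adjusted p = 0.00846) and the hydrolase GGH, which trims stored folates, had -0.60 (adjusted p = 0.00111).

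In the salvage branch, TK1, the cytosolic thymidine kinase, showed the largest fall of the 9 genes. TK1 (chromosome 17, 76170172 to 76183133, minus strand, 7 exons) stood at 93.3, 84.8 and 73.8 CPM in DMSO and at 43.3, 51.9 and 35.4 CPM in SAL. The highest SAL library stayed under the lowest DMSO library, which held for 3.73% of all genes tested. A two-sided exact permutation test of the 3 against 3 libraries gave p = 0.1, the smallest p this design allows. Any gene with groups separated in this way has that p, so it adds nothing to the separation. The test also leaves out the pairing. The same exact permutation test gave p = 0.2 for RRM2 and p = 0.6 for DUT and DTYMK, and the rest of the 9 lay between. For TK1 the fit gave a change of -0.96 log2 units (SE 0.11, adjusted p = 1.27e-05), which leaves 51.6% of the DMSO level, or -1.10, -0.71 and -1.06 in pairs 1, 2 and 3. TK1 also had the smallest spread between replicates of the 9 relative to its mean in DMSO, at 83.9 ± 9.79 CPM (SD, n = 3). TK2, the mitochondrial thymidine kinase, was not called, at 0.24 (95% interval -0.02 to 0.49, adjusted p = 0.197). It was called up without replicate 1, at 0.34 (adjusted p = 0.0422). The call was absent without replicate 2, at 0.11 (adjusted p = 0.685), and without replicate 3, at 0.23 (adjusted p = 0.559). The ratio of TK1 to TK2 changed by -1.10, -1.13 and -1.28 log2 units in the pairs. Against DUT, the gene with the smallest change, the ratio of TK1 changed by -0.72, -0.50 and -0.72. These ratios were not tested.

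DCK, the kinase of deoxycytidine and of several nucleoside drugs, fell less. DCK (chromosome 4, 71859366 to 71896631, plus strand, 7 exons) stood at 130, 71.5 and 79.2 CPM in DMSO and at 109, 52.5 and 64.8 CPM in SAL. The fitted change was -0.33 log2 units (SE 0.10, adjusted p = 0.0240), or -0.25, -0.44 and -0.29 in pairs 1, 2 and 3. The call was lost with DESeq2 (adjusted p = 0.117), without replicate 2 (adjusted p = 0.0736) and without replicate 3 (adjusted p = 0.258). DGUOK, the mitochondrial kinase related to it, had a log2 fold change of 0.24 (95% interval -0.10 to 0.59, adjusted p = 0.331), or -0.05, 0.68 and 0.12 in pairs 1, 2 and 3, and its direction turned to -0.0074 without replicate 2. The ratio of DCK to DGUOK moved by -0.20, -1.12 and -0.41 on the log2 scale, and most of this lies in pair 2.

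SAMHD1, which hydrolyses deoxynucleoside triphosphates and so lowers the pool that the other 8 genes build or guard, fell together with them. SAMHD1 (chromosome 20, 35518632 to 35580111, minus strand, 16 exons) stood at 36.4, 84.5 and 77.8 CPM in DMSO and at 24.7, 55.7 and 53.1 CPM in SAL. Like CAD, it was lowest in replicate 1 in both groups, and its canonical transcript of 4649 bp is the second in length after CAD. RRM1 and RRM2, of the same length class as SAMHD1, went the other way. They were 0.79 and 0.66 log2 units higher in DMSO replicate 1 than in the other DMSO replicates. A part of transcript length in these differences was not tested. For SAMHD1 the fit gave a change of -0.57 log2 units (SE 0.10, adjusted p = 0.000724), or -0.55, -0.60 and -0.55 in pairs 1, 2 and 3, the narrowest range over pairs of the 9 genes. The ratio of RRM2 to SAMHD1 moved by 0.10, -0.13 and -0.32, so that its direction was not shared by the pairs.

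**Figure D3:**
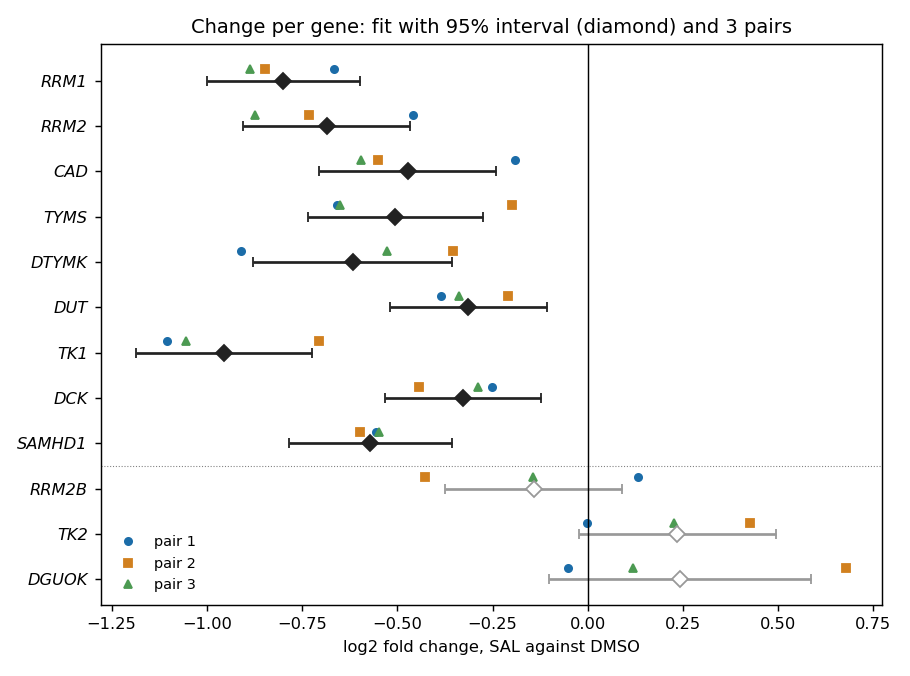
Log2 fold change of SAL against DMSO for the 9 genes (above the dotted line) and 3 related enzymes, as the fitted value with its 95% interval (diamonds, filled where the adjusted p is under 0.05) and as the value of each pair. The 9 intervals lie below 0, and those of RRM2B, TK2 and DGUOK include 0.

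Set per length of the canonical transcript, the levels of the 9 genes in DMSO ran from 76.0 ± 24.8 CPM per kb for TYMS to 10.2 ± 6.15 CPM per kb for CAD (SD, n = 3). Between them came RRM1 (71.6 CPM per kb), TK1 (58.7), DTYMK (54.8), DUT (48.4), RRM2 (46.8), DCK (37.3) and SAMHD1 (14.2). Neighbours in this order from TYMS to DTYMK, and DUT with RRM2, did not keep their order in all 3 DMSO libraries. DCK stood above SAMHD1, and SAMHD1 above CAD, in all 3. In SAL, TYMS again had the highest mean, at 52.8 ± 12.5 CPM per kb. SAMHD1 and CAD had the lowest means, at 9.57 ± 3.70 and 7.07 ± 3.81. TYMS was not the highest in every SAL library. DUT stood above it in SAL replicate 1 (68.2 against 66.1 CPM per kb), and RRM1 in SAL replicate 3 (44.2 against 41.3). The TYMS value divides by the full transcript length, although its count leaves out reads lying wholly in exons shared with ENOSF1. TK1 stood in the third place in DMSO and in the fifth place in SAL, at 30.4 ± 5.77 CPM per kb, where it lay among DTYMK, DCK and RRM2 with no fixed order across the libraries.

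The wider set of nucleotide enzymes held 65 further genes, of which 61 passed the filter. NME2, CDA and DPYD were listed at 0 in every library, and XDH had at most 4 counts. Of the 61, 21 were called down and 5 up, and the median change was -0.18 log2 units. Over all genes tested, edgeR called 9.37% down and 11.5% up, and DESeq2 called 4.75% and 7.62%. No list was tested against these shares. Of the 13 genes of purine synthesis, 7 were called down and 2 up by edgeR, 5 down and 2 up by DESeq2, with a median of -0.30. Those called down included ATIC at -0.63 (adjusted p = 0.000198) and PFAS at -0.61 (adjusted p = 0.00327), with the falls of PAICS and IMPDH2 at -0.44 and -0.47 (adjusted p = 0.00228 and 0.00317). ATIC, PFAS and PAICS build the purine ring, and IMPDH2 is the step towards guanine nucleotides in dividing cells. Its sister gene IMPDH1 went the other way, at 0.45 (adjusted p = 0.00443), as did PRPS1, which makes the ribose phosphate donor, at 0.35 (adjusted p = 0.0111).

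Of the 14 further salvage and transport genes tested, 4 were called down and none up by edgeR (none up at an unadjusted p under 0.05), and DESeq2 called 2 down and none up. The equilibrative nucleoside transporter SLC29A1 had the largest change of all the nucleotide genes tested, at -1.30 log2 units (SE 0.15, adjusted p = 1.64e-05). It moved by -1.24, -1.22 and -1.38 in pairs 1, 2 and 3, from an average of 24.2 to 9.80 CPM. ADK, PNP and HPRT1, which recover adenosine and purine bases, changed by -0.44, -0.39 and -0.39 (adjusted p = 0.00353, 0.0166 and 0.0345). DESeq2 called neither PNP nor HPRT1 (adjusted p = 0.118 and 0.144), and HPRT1 was at -0.23 without replicate 3 (adjusted p = 0.514). Of 10 genes that cleanse the deoxynucleotide pool or break nucleotides down, 2 were called down, NUDT1 at -0.96 and NT5M at -0.92 (adjusted p = 0.0183 and 0.0253), both at low levels, 6.64 and 5.65 CPM on average in DMSO. None was called up by edgeR, with 2 at an unadjusted p under 0.05. DESeq2 called none of the 10, and both calls down were lost without replicate 1 (adjusted p = 0.120 for NUDT1 and 0.0881 for NT5M). Of the 10 nucleotide kinases tested, none was called down by edgeR (1 at an unadjusted p under 0.05, none by DESeq2), 3 were called up (2 by DESeq2) and 7 were not called, with 4 lower and 6 higher in SAL. The genes called up were the mitochondrial adenylate kinases AK4 at 0.64 (adjusted p = 0.000157) and AK3 at 0.43 (adjusted p = 0.0136), and the guanylate kinase GUK1 at 0.52 (adjusted p = 0.0200). DESeq2 did not call AK3 (adjusted p = 0.0701). GUK1 moved by 0.09, 0.90 and 0.58 in pairs 1, 2 and 3, and its change was 0.29 without replicate 2, where the call was lost (adjusted p = 0.163), 0.77 without replicate 1 and 0.49 without replicate 3, where it was not called either (adjusted p = 0.170). No difference between these lists was tested. Nor was any list tested against the shares of all genes, 9.37% down and 11.5% up by edgeR and 4.75% and 7.62% by DESeq2. Without replicate 3 the wider set had 5 genes called down and 1 up, when 2.84% of all genes were called down.

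**Figure D4:**
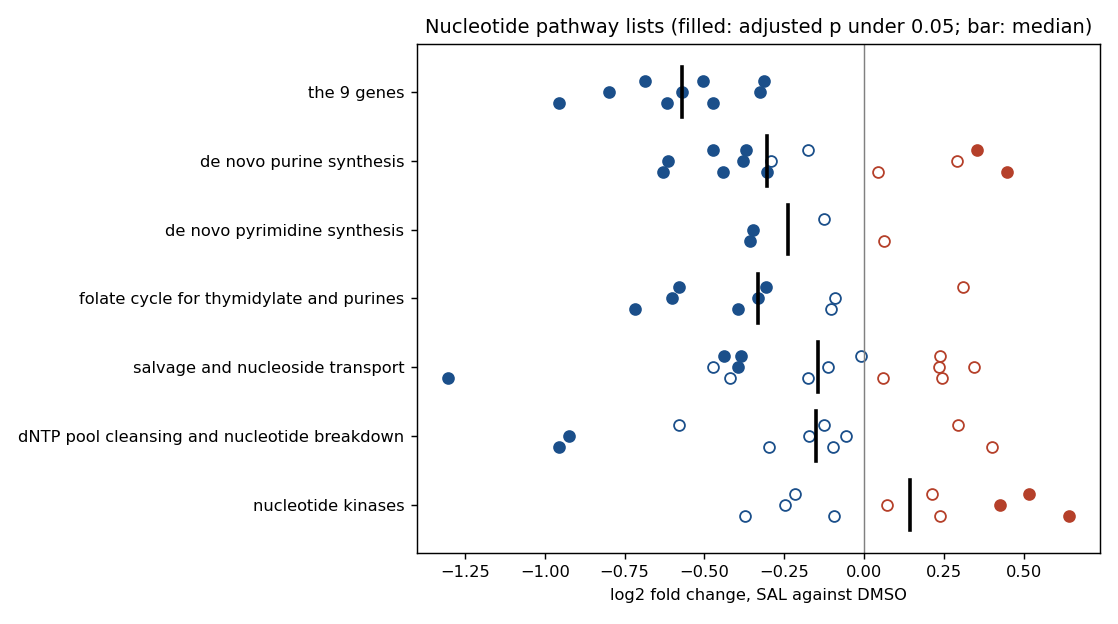
Log2 fold change of SAL against DMSO for each tested gene of the nucleotide pathway lists, filled where the adjusted p is under 0.05, with the median of each list as a black bar. The 9 genes have a median of -0.57, and the nucleotide kinases have the only median above 0, at 0.14.

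Genes of the replication machinery and of proliferation moved in the same direction in the same libraries. PCNA, MCM2 and MKI67, a sliding clamp, a helicase subunit and a marker of cycling cells, changed by -0.69, -0.75 and -0.49 (adjusted p = 8.11e-05, 9.42e-05 and 0.00103). All 12 genes of this kind on the list were called down, as were 9.37% of all genes tested. Their median was -0.69, beside the median of -0.57 of the 9 nucleotide genes. Whether the nucleotide genes changed beyond the replication genes was not tested, and the part that a change in the share of cycling cells has in these values was not tested. Over the 6 libraries and the 10227 genes outside the lists with a mean of at least 10 CPM, the levels most like those of RRM2 were those of STK3, GTF2H3 and LMBR1 (Pearson r = 0.999, 0.997 and 0.995 of log2 CPM). For TYMS they were C1orf174, PARP2 and RPL5P12 (r = 0.998, 0.991 and 0.991), and for TK1 they were C7orf41, GINS4 and SLC37A3 (r = 0.982, 0.973 and 0.972). These libraries share replicate number and treatment, and a likeness over 6 of them is a description of their profiles. GINS4, a subunit of the replicative helicase, was called down at -1.07 log2 units (adjusted p = 2.15e-05), while LMBR1 was at -0.18 (adjusted p = 0.198), although its profile followed that of RRM2 closely.

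The fall of the 9 genes had the same direction in each of the 10 alternative fits, while the number called differed between fits. Without replicates 1, 2 and 3 in turn, 8, 8 and 5 of the 9 were called down, when 11.7%, 7.92% and 2.84% of all genes were called. The genes no longer called without replicate 3 were TYMS, DUT, CAD and DCK. TK1, RRM1, RRM2, DTYMK and SAMHD1 were called down in every fit that kept the replicate block.

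**Figure D5:**
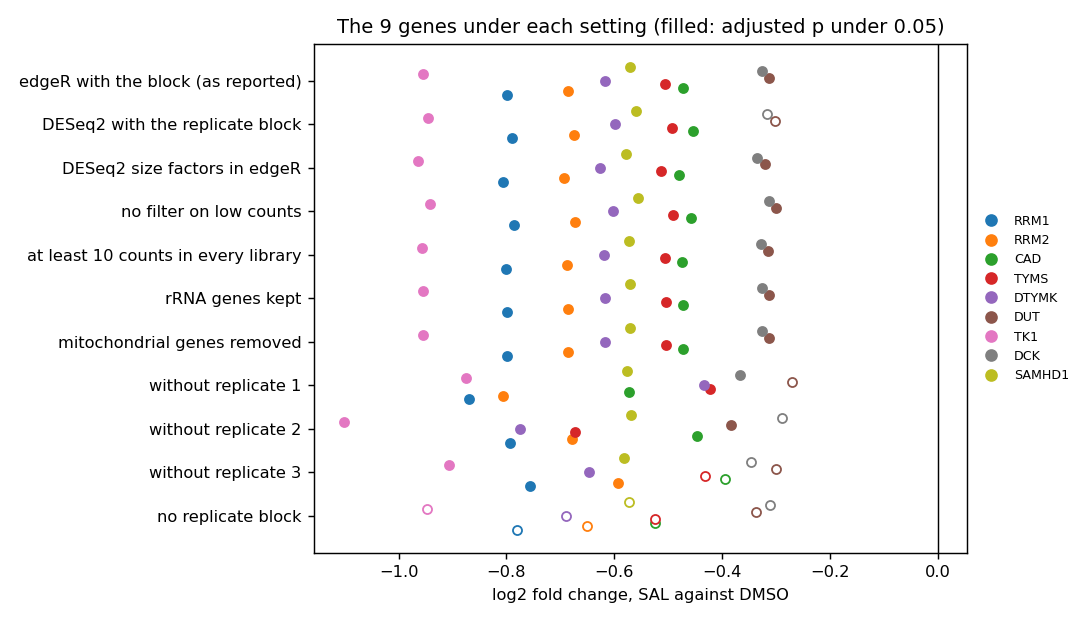
Log2 fold change of the 9 genes as reported (top line) and under each alternative setting, filled where the adjusted p is under 0.05. All points lie below 0, and none is filled without the replicate block.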

How the data were processed

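Total RNA of C4-2 cells was sequenced in 6 libraries. Before depositing them, the authors cleaned the reads, aligned only read 1 of the pairs to hg19 (TopHat2 2.1.0) and tallied it on exons of gencode v19 with HTSeq 0.11.2 irrespective of strand although the kit was stranded, which gave the deposited raw counts. Here, 523 rRNA symbols (removed in the paper too) and the 5 htseq-count tallies were left out (rRNA held 11.9% to 27.8% of gene counts, and reads outside genes 24.0% to 48.3% of all tallied reads), low genes were filtered with filterByExpr, and SAL was compared with DMSO by edgeR 4.0.16 in R 4.3.3 (TMM, quasi-likelihood test, robust dispersions, Benjamini-Hochberg adjustment). From DMSO to SAL, the rRNA share went from 27.7% to 27.8%, 18.6% to 22.0% and 11.9% to 17.4% in replicates 1, 2 and 3. Reads outside genes went from 37.3% to 38.6%, 30.1% to 24.0% and 48.3% to 43.3% in the same order. The part of these differences in the changes within pairs was not tested. The replicate number was a block because the paper names a paired test. The deviations of same-numbered libraries had correlations of 0.89, 0.86 and 0.74. Pair values are log2 CPM differences (prior count 2). The SE is the size of the log2 fold change over the square root of F. The fit was also tried on simulated data, and the outcome of that trial is not reported here.

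The 9 genes and all lists were chosen with earlier results of these data known. Further genes were named by rule, namely at most 4 called per direction and list by adjusted p, related enzymes of the 9, KLK3, FKBP5, PCNA, MCM2, MKI67 and the 3 profiles most like RRM2, TYMS and TK1. A few genes of the lists are not reported here. ENOSF1, DHODH, CTPS2, marker genes and untested genes were named after their values were seen. Positions and transcript lengths come from GRCh37 with GENCODE v44 (a length was found for 82.5% of the genes tested), and promoters from RefSeq in GRCh38.p14, another build. Alternatives were DESeq2 1.42.0, its size factors, 2 other filters, rRNA genes kept, mitochondrial genes removed, no block, each number left out and a threshold of 0.01.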

Additional observations from a re-analysis of the deposited data

How the results depend on the processing

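The log2 fold changes of the 9 nucleotide genes were negative in all 10 alternative fits, from -1.10 (TK1) to -0.27 (DUT). Leaving out 1 replicate number at a time gave 5 to 8 of the 9 called down and none up, with 483 to 1955 genes called down and 750 to 2443 called up in all, and 5 to 20 of the wider nucleotide genes called down and 1 to 8 up. The lowest of each came without replicate 3, and the cause was not tested. Without the replicate block, edgeR called 0 of the 9 (1 at an unadjusted p under 0.05), and 3 genes down and 18 up in all. Of the wider genes it then called 0 down and 0 up. The pairs were set by replicate number, and the deviations of same-numbered libraries had correlations of 0.89, 0.86 and 0.74. With DESeq2 and the block, 842 genes were called down in all and 11 of the wider genes down. At an adjusted p under 0.01, 876 genes were called down and 1234 up, with 7 of the 9. Filters, size factors, rRNA genes and mitochondrial genes changed no call among the 9. DGUOK, at 0.24 and not called, ranged from -0.0074 without replicate 2 (adjusted p = 0.985) to 0.44 without replicate 1. Libraries of 3 per group limit every test, and low genes such as NT5M and NUDT1 lost their calls in 4 of 10 fits each.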
